A study of Mus musculus with 4 samples.

Results

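The AP-1 family subunits were examined in RNA-Seq libraries of wild-type mouse B cells. The members were 10 genes, taken by name as Fos, Jun, Batf and Atf subunits of AP-1, namely Fos, Fosb, Fosl1, Fosl2, Jun, Junb, Jund, Batf, Batf3 and Atf3, out of 20599 gene symbols in the files. Peritoneal B1a cells (n = 2 libraries) were compared with splenic follicular B2 cells (n = 2 libraries). The labels give wild-type C57BL/6 mice of 4 weeks for every library and no treatment. The methods give an older age for the mice of the B2 libraries, so tissue, sort and possibly age change together with the cell type and cannot be told apart. The methods describe B1a cells sorted from peritoneal washes by a gate that included CD23- IgM+ CD5+ and follicular B2 cells sorted from spleen by a gate that included IgD hi IgM lo CD21+, from 2 mice for each cell type that were littermate controls of Dnmt3a-deficient mice. The cell numbers given for B1a sorts reach below that of the B2 sorts. Libraries of Dnmt3a-deficient cells were not analysed here.

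AP-1 is a dimer of basic leucine zipper (bZIP) proteins. Jun proteins pair with themselves or with Fos proteins, Batf proteins pair with Jun proteins and lack a transactivation domain, and Atf3 pairs with Jun proteins and often represses. Fos, Fosb, Jun, Junb and Atf3 are immediate early or stress-response genes, transcribed within minutes of a signal such as B cell receptor engagement, with short-lived transcripts.

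Library totals lay between 11032732 and 18588623 expected counts, and 3 counts, the floor used here, corresponded to between 0.157 and 0.270 CPM (counts scaled by library size). The floor covers counting error alone. The B1a replicates were less alike than the B2 replicates. Correlation was 0.816 for the B1a pair and 0.959 for the B2 pair. Across cell types, a B1a library with a B2 library, it ranged from 0.765 to 0.842. The highest of these values lay above that of the B1a pair. Every B1a mean and call below rests on this pair. A fall from at least 100 counts in 1 replicate to no more than 3 in its partner was seen for 200 genes in B1a and for 4 in B2. The B cell markers Cd79a and Ms4a1 were called higher in B1a and Pax5 in B2 cells, and these lay above the floor in every library. Of 5 B1a marker genes, 4 were called higher in B1a cells and Cd5, named after its value was seen, was not (log2 fold change 2.32, adjusted p = 0.146), and the follicular markers Fcer2a and Cr2 were called higher in B2 cells. Of 9 macrophage markers, 4 had both B1a libraries above both B2 libraries (Lyz2, Emr1, Cd68 and Cd14), 0 the reverse, and 5 overlapped. Lyz2 was the largest part of their B1a sum, at 127 and 136 CPM, against 16.8 and 27.2 CPM in the B2 libraries. The 9 listed genes summed to 192 and 230 CPM in the B1a libraries, against 60.7 and 63.4 CPM in the B2 libraries, 1 of 6 tested was called (Lyz2), and the peritoneal macrophage gene Gata6 had 0 counts in 3 libraries and 1 count in B1a replicate 2. Mast cell markers summed to 24.1 and 11.8 CPM in B1a, against 1.47 and 0.941 CPM in B2, with 0 called. Erythroid markers summed to 78.8 and 504 CPM in B1a, against 36.1 and 80.8 CPM in B2, with Hba-a2 called. T cell markers summed to 108 and 68.8 CPM in B1a, against 84.2 and 83.1 CPM in B2, and neutrophil markers reached at most 6.64 CPM. The part of these cells in the results below was not tested. Adjusted p-values are those of Benjamini and Hochberg over 12078 genes, from the quasi-likelihood test of edgeR unless another tool is named.

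Atf3, Fosl2, Fosb and Fos were higher in B1a than in B2 cells. Atf3 was a rare transcript in B2 cells, reached the level of Fosb in B1a cells, and had the smallest p-value of all 12078 genes tested. Jun, Junb and Jund were high in both cell types and were not called, although Jun was in 7 of 15 alternatives. Of the 10 members, 8 had enough counts for the test; Fosl1 and Batf3 did not. Of these 8, 4 were called higher in B1a (50% of those tested) and 0 higher in B2, against 4.24% and 1.5% of all genes tested and 5.74% in either direction. At an unadjusted p under 0.05 there were 7 members, all higher in B1a, and 2525 of all 12078 genes tested, in either direction. Over the 8 tested members the log2 fold change had a median of 1.37, against -0.03 over all genes. In bulk RNA a lower level cannot be told apart from a smaller share of cells that express the gene.

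The promoters of the 4 genes called higher, with that of Jun for comparison, are shown because they are the DNA from which the differing transcripts start. Each window is the 250 bases before the start used in the RefSeq promoter table for GRCm38.p6, given 5′ to 3′ on the strand of the gene. For Fosb that start lies inside the gene span given below, so that the last 73 bases of its window, with its TGACG match, are within the annotated gene; the other 4 windows end where the gene begins. The windows lie at chr12:85473640-85473889 (Fos, + strand), chr7:19310046-19310295 (Fosb, - strand), chr5:32136222-32136471 (Fosl2, + strand), chr1:191183334-191183583 (Atf3, - strand) and chr4:95052223-95052472 (Jun, - strand). Capitals mark matches to TGACG, the core of the cyclic AMP response element, on either strand, to TATAA, and to TGACATCA, the AP-1-like element known from the Jun promoter.
Fos: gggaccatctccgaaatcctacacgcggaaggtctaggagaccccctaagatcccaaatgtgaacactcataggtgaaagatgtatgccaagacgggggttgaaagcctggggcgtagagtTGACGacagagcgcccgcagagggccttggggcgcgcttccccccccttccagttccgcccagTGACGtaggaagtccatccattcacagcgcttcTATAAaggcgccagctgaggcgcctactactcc
Fosb: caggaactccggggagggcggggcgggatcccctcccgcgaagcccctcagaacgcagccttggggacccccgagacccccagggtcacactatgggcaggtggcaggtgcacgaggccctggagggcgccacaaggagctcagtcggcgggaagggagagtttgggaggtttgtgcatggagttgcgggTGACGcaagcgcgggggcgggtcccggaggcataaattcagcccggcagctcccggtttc
Fosl2: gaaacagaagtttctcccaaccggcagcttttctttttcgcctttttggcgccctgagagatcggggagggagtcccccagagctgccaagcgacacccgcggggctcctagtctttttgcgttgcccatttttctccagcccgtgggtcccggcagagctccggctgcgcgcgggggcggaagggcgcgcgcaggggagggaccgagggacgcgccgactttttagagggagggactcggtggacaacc
Atf3: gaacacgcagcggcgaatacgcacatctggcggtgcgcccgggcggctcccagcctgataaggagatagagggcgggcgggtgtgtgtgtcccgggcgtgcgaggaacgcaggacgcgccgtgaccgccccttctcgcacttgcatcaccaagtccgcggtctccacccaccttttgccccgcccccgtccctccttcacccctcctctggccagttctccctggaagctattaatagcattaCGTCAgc
Jun: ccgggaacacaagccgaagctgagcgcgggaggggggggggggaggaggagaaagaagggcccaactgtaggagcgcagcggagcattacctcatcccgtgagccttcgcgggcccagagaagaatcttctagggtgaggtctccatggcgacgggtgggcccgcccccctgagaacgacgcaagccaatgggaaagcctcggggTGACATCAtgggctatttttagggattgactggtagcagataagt

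Promoter windows were found for 9 of the 10 members, Fosl1 having no entry. On either strand, TGACG occurred in the windows of Fos (2 matches), Fosb, Atf3, Junb and Batf, and in 17.8% of the 32851 promoter windows of the same length. TGACATCA occurred in the Jun window and in 2.93% of all windows. The Fos window held TATAA, found in 22.8% of all windows. The full element TGACGTCA, which contains TGACG, the AP-1 site TGANTCA and the CArG box bound by Srf had 0 matches in the 9 windows. Of all windows, 1.55%, 6.75% and 1.47% held them, in that order. Bases farther upstream were not searched, so a promoter, that of Fos included, may hold these sites outside its window. The windows of the 4 called genes held between 15 and 24 CpG dinucleotides, where the median window held 6, and the Jun and Junb windows held 15 and 20. The windows of Jund, Batf and Batf3 held 3, 7 and 27. These matches describe letters and were not compared with binding or methylation data.

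Fos pairs with Jun proteins and lies on chromosome 12 of GRCm38.p6 from 85473890 to 85477274. Its normalized count was 861 and 702 CPM in the B1a libraries and 192 and 150 CPM in the B2 libraries. Both B1a libraries lay above both B2 libraries. The means were 781 ± 112 and 171 ± 29.6 CPM (SD, n = 2 each). The difference was 4.58-fold, or 2.19 ± 0.18 as a log2 fold change with its standard error (adjusted p = 0.00307 by edgeR). Fosb, a close relative of Fos that lies on chromosome 7 from 19302696 to 19310118, stood at 715 and 602 CPM in the B1a libraries, against 124 and 127 CPM in the B2 libraries. The groups did not overlap, and the B2 libraries differed by less than the B1a libraries. Its difference was 5.25-fold, or 2.39 ± 0.14 on the log2 scale (standard error, adjusted p = 0.0013 by edgeR). Fosl2, also called Fra-2, was a minor transcript at 36.6 and 24.2 CPM in the B1a libraries, against 1.31 and 3.87 CPM in the B2 libraries. Its log2 difference of 3.53 ± 0.70 (standard error, adjusted p = 0.0454 by edgeR) lay just within the threshold. The call was lost in 7 of 15 alternatives, among them without B2 replicate 1 (log2 fold change 2.97, adjusted p = 0.0826). Fosl1, or Fra-1, had 0 counts in all 4 libraries, which allows up to 0.270 CPM in a B1a library.

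Atf3 lies on chromosome 1 from 191170296 to 191183333 and is best known as a gene of the stress response. It stood at 392 and 309 CPM in the B1a libraries, against 1.04 and 1.10 CPM in the B2 libraries, which is 12 and 21 counts. The groups lay far apart. The 9 macrophage markers also summed higher in the B1a libraries, at 192 and 230 CPM against 60.7 and 63.4 CPM, mostly through Lyz2. Their part in the Atf3 difference was not tested. Atf3 was 323-fold higher in B1a cells, or 8.34 on the log2 scale with a 95% interval from 7.72 to 8.95 (adjusted p = 0.0003 by edgeR). By TPM, which is scaled for transcript length, Atf3 lay above 98.7% and 98.3% of all gene symbols in the B1a libraries and above 44.0% and 44.7% in the B2 libraries. It ranked 21 of 12078 by log2 fold change. Fos, Fosb and Atf3 were called in each of 15 alternatives.

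**Figure D1:**
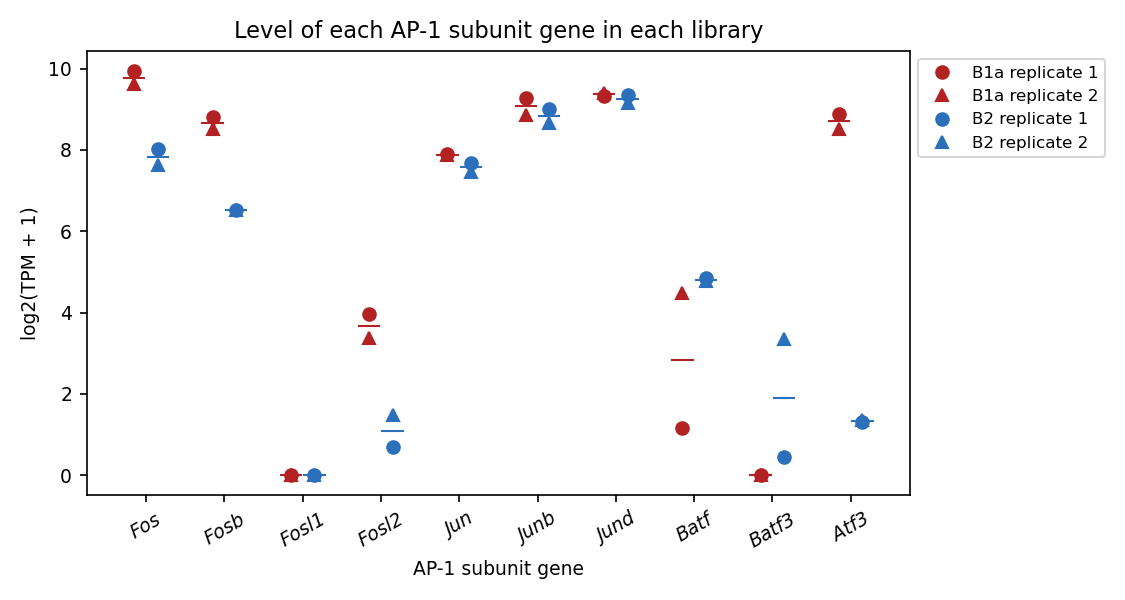
Level of the 10 AP-1 subunit genes as log2(TPM + 1) on the vertical axis for each gene along the horizontal axis, with red for B1a and blue for B2, a circle for replicate 1, a triangle for replicate 2 and a line for the mean of the 2 log values. Fos, Fosb, Fosl2 and Atf3 are higher in both B1a libraries, the Jun genes are close together, and Batf is low in B1a replicate 1.

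Jun, the founding member of the family, stood at 318 and 325 CPM in the B1a libraries, against 235 and 205 CPM in the B2 libraries. The groups did not overlap, but the difference was small, 1.46-fold, with a log2 fold change of 0.55 (95% interval 0.23 to 0.87, adjusted p = 0.0792 from edgeR). Junb, which can oppose Jun on some promoters, stood at 471 and 366 CPM in the B1a libraries, against 337 and 266 CPM in the B2 libraries. The B1a replicates differed from each other by about as much as the groups did. Its log2 fold change was 0.48 (95% interval 0.03 to 0.93, adjusted p = 0.216). Jund, the Jun gene known for broad and steady expression, stood at 781 and 848 CPM in the B1a libraries, against 678 and 593 CPM in the B2 libraries, a log2 difference of 0.36 (95% interval 0.06 to 0.65, adjusted p = 0.168). The intervals hold for each gene alone, without adjustment, and exclude a 2-fold difference for the 3 Jun genes. On the TPM scale the libraries of the groups overlapped for Junb and Jund, the Jun genes moved less, and the median of all genes moved too: with limma on log2(TPM + 1) it shifted by -0.27, and the log2 fold changes were 0.31 for Jun, 0.23 for Junb and 0.12 for Jund. Relative to that median they were 0.61, 0.53 and 0.41. The call depended on the method: Jun was called in 7 of 15 alternatives, Jund in 4 and Junb in 2. Jun was called by DESeq2 (adjusted p = 0.00659), by limma-voom (adjusted p = 0.0398), by limma-voom with weights (adjusted p = 0.021) and by edgeR without the filter (adjusted p = 0.0419), and Jund by DESeq2 (adjusted p = 0.0246). Without B1a replicate 1 the log2 fold changes by edgeR were 0.56 for Jun, 0.28 for Junb and 0.41 for Jund. Without B1a replicate 2 they were 0.53, 0.65 and 0.30. In these last fits the lone B1a library is assumed to vary like the B2 libraries, and their calls are among the alternatives counted above.

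Batf, which pairs with Jun proteins and binds DNA beside Irf4 or Irf8, lies on chromosome 12 from 85686720 to 85709087, 209.445 kb after Fos. In the B1a libraries it stood at 0.448 and 7.82 CPM, which is 5 and 87 counts, against 8.50 and 8.15 CPM in the B2 libraries. B1a replicate 2 lay close to the B2 libraries and B1a replicate 1 far below them. The log2 fold change of -1.01 had a wide interval, from -4.30 to 2.29 (adjusted p = 0.757 from edgeR). Without B1a replicate 1 it was -0.09, and without B1a replicate 2 it was -4.19, so the value rests on 1 library. Batf3, known from dendritic cells, had 0 counts in both B1a libraries and 1 and 42 counts in the B2 libraries. It lies 61.352 kb from Atf3 on chromosome 1. Neighbours on a chromosome therefore had unlike values in both cases, Fos with Batf and Atf3 with Batf3.

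Of the 10 members, 7 had both B1a libraries above both B2 libraries, 2 the reverse, and Fosl1 was at 0 throughout. Among the 8 tested these were 7 and 1, where 25.3% and 29% of all genes tested did so, 54.3% in either direction. The untested member with the reverse order, Batf3, had 1 count in B2 replicate 1. That lies under the floor of 3 counts and cannot be told apart from the 0 counts in B1a. Of the 8, 7 had at least 10 counts in every library, Batf being the exception. With 2 libraries in each group the smallest p of an exact permutation test is 0.333, and the calls therefore depend on the spread that edgeR estimates over many genes. Across all genes, 693 were called, 512 higher in B1a and 181 higher in B2; with limma on log2(TPM + 1) the split was 266 and 233. Without B1a replicate 1 the number was 3953 and without B1a replicate 2 it was 6143. The posterior standard deviation of the count that the files give was at most 2.94 counts for any member in any library. RefSeq lists a gene overlapping Fosl1, Ccdc85b, and 0 overlapping the other members.

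**Figure D2:**
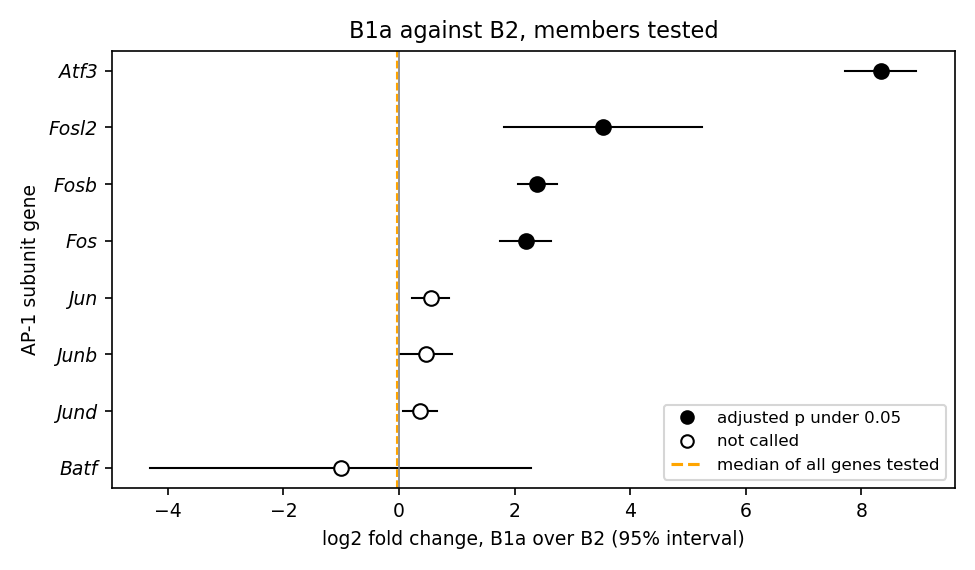
Log2 fold change of B1a over B2 on the horizontal axis for the 8 members tested, with the 95% interval of each gene as a line; filled points passed an adjusted p of 0.05 and the dashed line is the median of all genes tested, -0.03. Atf3 lies at 8.34, Fosl2, Fosb and Fos between 2.19 and 3.53, and the 3 Jun genes between 0.36 and 0.55.

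The order of the levels differed between the cell types on the TPM scale. In B1a cells it was Fos (883 ± 142 TPM, SD, n = 2), Jund (662 ± 26.8), Junb (541 ± 105), Atf3 (420 ± 77.7), Fosb (406 ± 56.3) and Jun (235 ± 0.912), followed by Fosl2 (12.0 ± 3.66) and Batf (11.2 ± 14.1). The ranges of Junb and Atf3 overlapped across the B1a libraries, although Junb lay above Atf3 within each. Atf3 with Fosb and Fosl2 with Batf changed order between the B1a libraries, so these neighbours could not be ordered. In B2 cells it was Jund (611 ± 64.5 TPM, SD, n = 2), Junb (460 ± 81.1), Fos (228 ± 42.0), Jun (190 ± 20.4), Fosb (91.3 ± 0.424), Batf (27.0 ± 1.10), Batf3 (4.78 ± 6.24), Atf3 (1.51 ± 0.0424) and Fosl2 (1.2 ± 0.834). There the ranges of Fos and Jun overlapped, although Fos lay above Jun within each library. Batf3 with Atf3 and Atf3 with Fosl2 changed order between the B2 libraries.

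The summed TPM of the 10 genes was 3415 and 2927 in the B1a libraries and 1757 and 1472 in the B2 libraries. Of this sum the Jun subfamily held 43.8% and 47.2% in B1a libraries and 78.4% and 77.7% in B2 libraries. The Fos subfamily held 42.3% and 39.6% in B1a and 19.9% and 19.8% in B2 libraries. Atf3 held 13.9% and 12.5% in B1a and 0.0842% and 0.105% in B2 libraries, and the Batf subfamily at most 2.41% in any library. On the TPM scale, transcripts of the Jun subfamily themselves differed little, 1495 and 1382 TPM in B1a and 1378 and 1144 TPM in B2 libraries. By CPM, both B1a libraries lay above both B2 libraries for each Jun gene. The ratio of Fos to Jun TPM was 4.17 and 3.33 in B1a and 1.26 and 1.13 in B2 libraries, without overlap. In contrast, the ratio of Fos to Fosb TPM was 2.21 and 2.14 in B1a and 2.83 and 2.16 in B2 libraries. These shares and ratios are descriptions of transcripts, and no test was made.

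**Figure D3:**
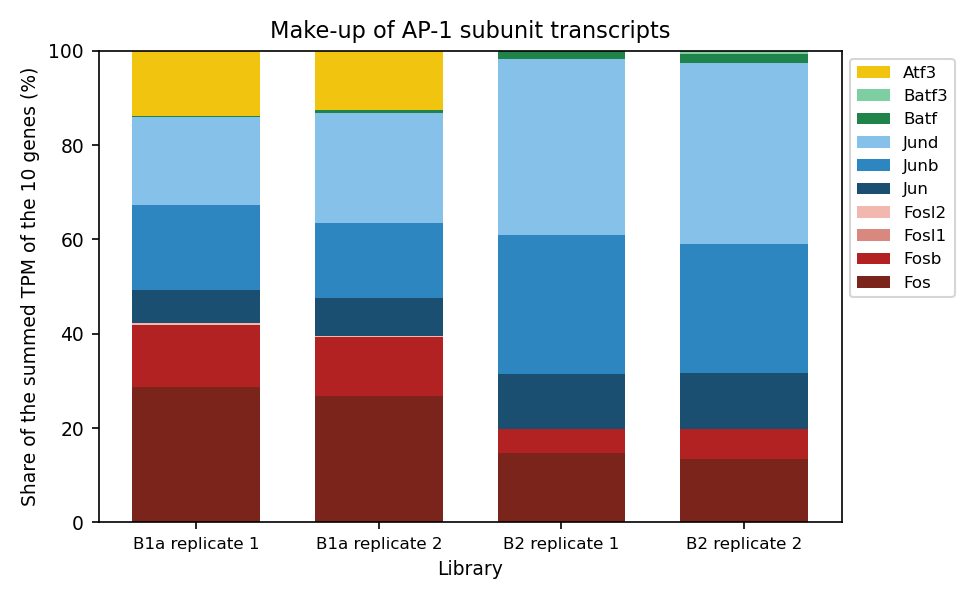
Share of the summed TPM of the 10 genes (vertical axis, percent) held by each gene in the 4 libraries along the horizontal axis; reds are the Fos, blues the Jun and greens the Batf subfamily, and yellow is Atf3. The Jun subfamily holds 43.8% and 47.2% in the B1a libraries and 78.4% and 77.7% in the B2 libraries.

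Transcripts of immediate early genes often carry AU-rich elements in the 3′ untranslated region, which shorten their life. The heptamer TATTTAT was found in this region of 7 of the 10 members, in the GENCODE transcript matched to RefSeq, and in 25.5% of 19282 genes. Fosl2 held 3 matches in 4653 bases and Fos 2 in 815 bases, while Fosb, Jun, Jund, Atf3 and Fosl1 held 1 each. Junb, Batf and Batf3 held 0. The element was therefore present both in members that were called and in members that were not.

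The other genes of the pathway were taken from 7 lists with 70 genes, of which 65 were tested. Of these, 8 were called higher in B1a and 5 higher in B2 (20% of those tested), with a median log2 fold change of -0.12. Over all genes tested, 5.74% were called in either direction. By list the share was 7.69% for immediate early and heat shock genes, 9.09% for other bZIP genes and 10.5% for kinases and Fos promoter factors. It was 14.3% for turnover genes, 42.9% for AP-1 targets, 50% for Batf partners and 66.7% for phosphatases. Of 11 other bZIP genes tested, 1 was called, Bach2, a repressor that competes with AP-1 for its sites in lymphocytes. In B1a cells Bach2 stood at 175 ± 7.37 CPM, against 736 ± 11.1 CPM in B2 (SD, n = 2 each), a log2 difference of -2.07 (adjusted p = 0.0013 by edgeR). Bach2 thus had the opposite direction to Fos. Of 19 kinases and factors that act on the Fos promoter, 1 was higher in B1a, Rps6ka1, a kinase downstream of ERK (log2 fold change 1.11, adjusted p = 0.0135), and 1 in B2, Elk3, an Srf partner (log2 fold change -1.28, adjusted p = 0.0318). The remaining 17 were not called.

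The MAP kinase phosphatases, which switch off the kinases that act on Jun and Fos, divided between the cell types. Of 6 tested, 2 were called in each direction. Dusp10 was higher in B1a cells, with 99.9 ± 15.4 CPM against 16.8 ± 3.15 CPM (SD, n = 2 each, log2 fold change 2.57, adjusted p = 0.00632 by edgeR), and Dusp1 had a log2 fold change of 1.69 (adjusted p = 0.0219). Dusp2 was lower in B1a cells, with 50.9 ± 4.90 CPM against 274 ± 5.96 CPM (SD, n = 2 each, log2 fold change -2.43, adjusted p = 0.00159 by edgeR), and Dusp4 had a log2 fold change of -4.04 (adjusted p = 0.0145). Of 7 genes for turnover of Fos and Jun transcripts and proteins, 1 was called, Fbxw7, the substrate receptor of a ubiquitin ligase that binds Jun, which was higher in B1a (log2 fold change 1.36, adjusted p = 0.00701). Of the Batf partners, Irf8 was lower in B1a cells (log2 fold change -1.84, adjusted p = 0.00236), and Irf4, named after its value was seen, stood at 355 and 530 CPM in the B1a libraries, against 262 and 274 CPM in the B2 libraries (log2 fold change 0.72, adjusted p = 0.119).

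Of 7 tested genes known as AP-1 targets, 3 were called, all higher in B1a cells. Vim, an intermediate filament gene, stood at 1759 ± 476 CPM in B1a cells, against 201 ± 13.6 CPM in B2 (SD, n = 2 each, log2 fold change 3.13, adjusted p = 0.00178 by edgeR). Cd44, an adhesion receptor for hyaluronan, had a log2 fold change of 2.29 (adjusted p = 0.0118). Il10 stood at 21.4 and 7.91 CPM in the B1a libraries and had 0 counts in both B2 libraries (adjusted p = 0.0322 by edgeR). It passed the filter through the B1a libraries alone. With 3 counts set in each B2 library, the B1a mean was at least 70.3-fold the B2 mean, a bound on the means and not on each library. The median of the 7 was 0.03.

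Other immediate early genes and heat shock genes, many of which are induced when cells are handled, formed another list. Of 13 tested, 1 was called, Klf6, with 871 ± 74.0 CPM in B1a cells, against 138 ± 0.407 CPM in B2 (SD, n = 2 each, log2 fold change 2.66, adjusted p = 0.000683 by edgeR), and the median log2 fold change was -0.20. The other 12 had log2 fold changes between -2.60 and 1.42. Both B1a libraries lay above both B2 libraries for Klf6, Egr2 and Nr4a1, and the reverse held for Egr3, Ier5, Btg2 and Dnajb1. The libraries overlapped for Egr1, Ier2 and the heat shock genes Hspa1a, Hspa1b, Hspa8 and Hsp90aa1. For these heat shock genes and Dnajb1, B2 replicate 2 lay above every other library. It stood at 38.9 CPM for Hspa1a, 145 for Hspa1b, 1503 for Hspa8, 520 for Hsp90aa1 and 116 for Dnajb1. B2 replicate 1 stood at 5.39, 16.4, 759, 318 and 63.5 CPM. Egr1, Egr3, Ier2 and Ier5 were instead higher in B2 replicate 1. The cause was not tested. The largest posterior standard deviation of the count was 161 for Hspa1a and 542 for Hspa1b, so the separate values of these genes are uncertain. The Egr genes, Nr4a1 and Ier2, which are often induced together with Fos, are given with values and were chosen after these were seen. Egr2 stood at 49.3 and 45.6 CPM in the B1a libraries, against 16.0 and 19.5 CPM in the B2 libraries (log2 fold change 1.42, adjusted p = 0.0578 from edgeR). Nr4a1 stood at 116 and 115 CPM in the B1a libraries, against 66.2 and 75.5 CPM in the B2 libraries (log2 fold change 0.71, adjusted p = 0.0922 from edgeR). These 2 genes had the direction of Fos without passing the threshold. Egr3 stood at 106 and 163 CPM in the B1a libraries, against 238 and 212 CPM in the B2 libraries (log2 fold change -0.74, adjusted p = 0.145 from edgeR). Egr1 stood at 150 and 205 CPM in the B1a libraries, against 223 and 132 CPM in the B2 libraries (log2 fold change 0.00, adjusted p = 0.998 from edgeR). Ier2 stood at 231 and 146 CPM in the B1a libraries, against 153 and 136 CPM in the B2 libraries (log2 fold change 0.38, adjusted p = 0.45 from edgeR). Members of this list therefore lay on both sides of 0. The difference between Fos and these genes was not tested.

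**Figure D4:**
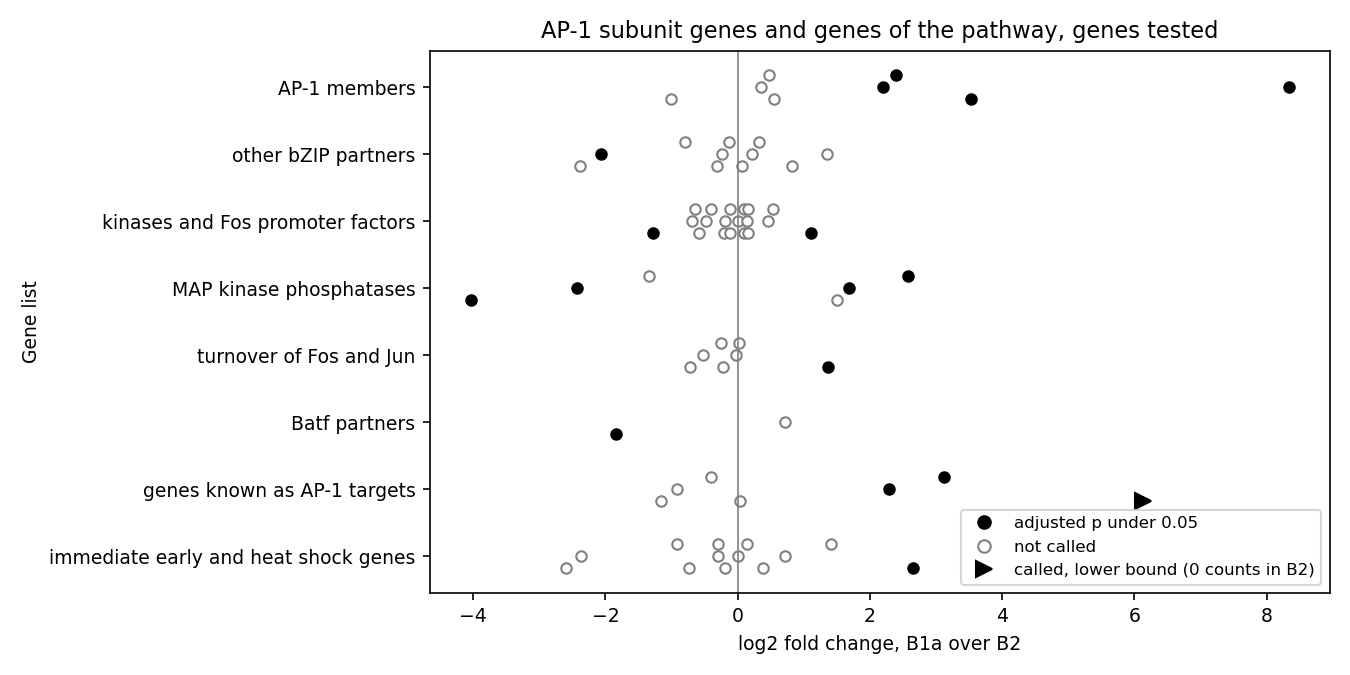
Log2 fold change of B1a over B2 on the horizontal axis for the tested AP-1 members and for the tested genes of 7 pathway lists, a row for each list; filled points passed an adjusted p of 0.05 and the triangle is the lower bound for Il10. In the AP-1 row 4 of 8 genes are filled, all to the right, while the phosphatases hold 2 filled points on each side.

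Genes whose pattern over the 4 libraries was most like a member were sought among 8894 genes whose mean reached 10 CPM, by the distance between log2 CPM values centred on their mean, given here as a description. For Fos these were Fcrl5, Lrrc16a and Nfam1, with distances between 0.0829 and 0.159 and log2 fold changes between 2.13 and 2.30. For Junb they were Gnl3l, Kif1c and Fbxo31, at distances up to 0.0636. For Batf they were Hoga1, Derl2 and Blm, at distances between 0.271 and 0.340. These 3 genes shared its low value in B1a replicate 1, Derl2 for example with 2.60 CPM there and 47.9 CPM in B1a replicate 2.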

How the data were processed

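RNA-Seq libraries of wild-type B1a (n = 2) and follicular B2 cells (n = 2) were used, grouped by their labels. Reads had been aligned by the authors to mm10 and assigned to RefSeq genes by RSEM. The version is 1.2.29 in the submitters' processing notes, and the methods name another. The authors deposited for each of 21970 gene entries an expected count, not normalized, where a read matching more than 1 entry is split. They also deposited TPM, scaled to the same total in each library, which sets levels of different genes side by side, and a signal column with the posterior standard deviation of each count. Reads divided between copies and the ribosomal depletion named in the labels can both move counts.

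Here the entries were summed by symbol (1 entry for each member) and rounded, genes were filtered with filterByExpr, libraries were scaled by TMM, and B1a was compared with B2 with edgeR 4.0.16 in R 4.3.3 by its quasi-likelihood test, with Benjamini-Hochberg adjustment across all genes, without a replicate block, at an adjusted p of 0.05. CPM values use the TMM scale. Standard errors and 95% intervals were derived from the F statistic. The test differs from the EBSeq test of the study's methods, which was not run. The code was tested on simulated data.

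The members and the gene lists were chosen with earlier results of these data known. Named genes were the members, called genes of each list (at most 4) and the 3 genes most like Fos, Junb and Batf. Other genes of the lists (Cd5, Gata6, Emr1, Cd68, Cd14, Irf4 and the uncalled immediate early and heat shock genes) were named after their values were seen. Alternatives were DESeq2 1.42.0, limma-voom (limma 3.58.1), upper quartile factors, other filters, limma on log2(TPM + 1) and log2(TPM + 0.1) for genes with a mean of at least 1 TPM, entries not summed, a replicate block and each replicate left out. A limma-voom fit that weights the cell types separately was chosen after seeing the data. Positions and promoters are from RefSeq for GRCm38.p6, which is mm10, and 3′ untranslated regions from GENCODE M21. P-values rest on the spread between these 2 libraries a group together with the spread estimated over many genes.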

Additional observations from a re-analysis of the deposited data

How the results depend on the processing

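The number of AP-1 members called, 4, stayed between 3 and 6 in every alternative but the replicate block (7) and the fits that leave out 1 library (3 to 8, with 8 without B1a replicate 2), and 0 members changed direction. The number of all genes called, 693, moved to 1562 with DESeq2, 1141 without a filter beyond 1 count, 359 with limma on log2(TPM + 0.1), 202 with limma on log2(TPM + 1) without a filter and 1415 with limma-voom and a weight for each cell type, and lay between 539 and 6143 with 1 library left out. The number of pathway genes called, 13, moved to 22, 20, 6 and 20 with DESeq2, no filter beyond 1 count, unfiltered log2(TPM + 1) and the weights, and lay between 11 and 39 with 1 library left out. The causes were not tested.

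With the replicate number as a block, 1481 genes, 7 members, the 3 Jun genes included, and 22 pathway genes were called. The methods name no pairing, so same-numbered libraries share a number alone. Their deviations had a correlation of -0.04, which with 2 libraries a group cannot decide whether they were paired.

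With CPM in place of TPM, which leaves out transcript length, the share of the summed level held by the Fos subfamily was 43.4% in B1a and 20.4% in B2, by Atf3 10.3% and 0.0735%, by the Jun subfamily 78.9% in B2 and by the Batf subfamily 0.654% in B2. With 2 libraries a group, leaving out 1 gives the share in the other, and the Batf subfamily in B1a then held 0.0366% or 0.725%. Depth limits Fosl1, Batf3, Batf in 3 libraries and the B2 values of Atf3 and Fosl2, each under 100 counts.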
